A study of Mus musculus with 12 samples.

Results

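The 10 X-linked genes Gpr34, Agtr2, Gpr119, Gpr101, Gpr50, Cysltr1, Lpar4, P2ry10, Gpr174 and Gpr143 encode G protein-coupled receptors and were taken by name from the deposited table of 952 X-linked genes. Of the 10, 9 had a value in all 8 ChIP libraries, as had 698 genes in all. Agtr2, a receptor for angiotensin II (X, 21061750 to 21065959), was listed without values and is not analysed further. The values are log2 enrichments of H3K9me3 and H3K27me3, both marks of silenced chromatin, from chromatin immunoprecipitation and sequencing in female mouse cells.

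The MD1 cells were Smchd1 MD1/MD1 and the WT cells Smchd1 +/+, in MEFs (embryonic fibroblasts, labelled E13.5) and in EpiSCs (epiblast stem cells, labelled E6.5). The MD1 allele removes SmcHD1, a chromosomal protein that maintains silencing of the inactive X. All cells, controls included, also carried Xist deltaA on 1 X chromosome, an allele that leaves the other X to be inactivated, and came from C57BL6/J crossed with F1 animals of JF1 and C57BL6/J. There was 1 ChIP library per mark in each of these kinds of cells, and 1 input library, so no test across samples could be made and no difference has a replicate check. The labels do not say whether a group came from 1 animal, 1 line or a pool. The table holds X-linked genes only, so neither the loss of Smchd1, which is autosomal, nor the cell type labels were checked against marker genes.

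G protein-coupled receptors cross the cell membrane several times and pass the binding of a ligand outside to G proteins inside. Most are made in a few cell types, and the members here are best known from immune cells, brain, pancreas, gut and pigment cells rather than from epiblast cells or fibroblasts. Gpr34, P2ry10 and Gpr174 are receptors for lysophosphatidylserine, Lpar4 for lysophosphatidic acid and Cysltr1 for the inflammatory cysteinyl leukotrienes. Gpr119 responds to lipid amides and lysolipids in pancreatic islets and gut. Gpr50 belongs to the melatonin receptor family but does not bind melatonin, Gpr101 is an orphan receptor linked in humans to excess growth hormone, and Gpr143 acts in melanosomes and is mutated in human ocular albinism.

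Each value is taken as the log2 ratio of ChIP to the matching input, so that 0 stands for no enrichment and 1 for 2-fold, up to 1 constant per library that no source used here states. The percentile of a gene among all genes of its library, and the difference between 2 genes of the same library, do not depend on that constant. A 95% counting interval was taken from the smallest whole-number ChIP and input counts that give a value. For the 9 receptor genes these input counts lay between 11 and 258 in each library, and the H3K9me3 ChIP counts between 1 and 263. The intervals cover counting error only, not the spread between cultures. True counts can be a multiple of these smallest ones, and an interval is then wider than counting error alone. H3K9me3 ChIP counts were lowest in MD1 EpiSCs, with a median of 13 over all genes, and 3 to 29 for the receptor genes.

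The receptor genes are spread along the X, apart from a cluster of 4 within 0.720 Mb: Cysltr1 (mm9, X, 103771848 to 103799018), Lpar4 (104115964 to 104129238), P2ry10 (104284674 to 104300309) and Gpr174 (104451217 to 104492108). The others are Gpr34 (13209895 to 13217984), Gpr119 (46021156 to 46027655), Gpr101 (54749845 to 54756934), Gpr50 (68916942 to 68921264) and Gpr143 (149216464 to 149243189). Cysltr1, Gpr119 and Gpr101 lie on the minus strand and the rest on the plus strand. Their lengths ran from 4323 to 40892 bases with a median of 13275, against a median of 20602 for all 698 genes. Gpr34 lies inside Cask on the opposite strand, and 20494 bases of Cysltr1 overlap Gm5127, so reads at these positions could count for both genes of a pair. The next measured gene after P2ry10, A630033H20Rik, is named P2ry10b in RefSeq, a paralogue with which P2ry10 may share reads. Its H3K9me3 was −1.68 in MD1 MEFs and −0.70 in WT MEFs, and −2.24 in MD1 EpiSCs and 1.85 in WT EpiSCs.

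H3K27me3 was enriched at all 9 receptor genes in every library, and H3K9me3 at some of them in WT cells. At least 2-fold H3K27me3 enrichment was found at 9 of 9 genes in MD1 MEFs, WT MEFs, MD1 EpiSCs and WT EpiSCs, where it was found at 75.1%, 80.9%, 96.1% and 87.1% of all genes with a value. For H3K9me3 the counts were 0 of 9 in MD1 MEFs and 1 of 9 in WT MEFs, against 2.92% and 20.3% of all genes. In EpiSCs they were 0 of 9 in MD1 and 6 of 9 in WT, against 5.3% and 64%. The receptor genes differed more among themselves in H3K9me3 than in H3K27me3 in each kind of cell: in WT EpiSCs H3K9me3 ran from −1.69 to 3.70 and H3K27me3 from 3.52 to 4.74. This spread includes counting error, and the lowest H3K9me3 in MD1 MEFs rested on a ChIP count of 1. Over all genes the standard deviations of H3K9me3 and H3K27me3 were 1.16 and 1.83 in MD1 MEFs and 1.028 and 1.027 in WT MEFs. In EpiSCs they were 1.12 and 1.09 in MD1 and 1.76 and 1.93 in WT.

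**Figure D1:**
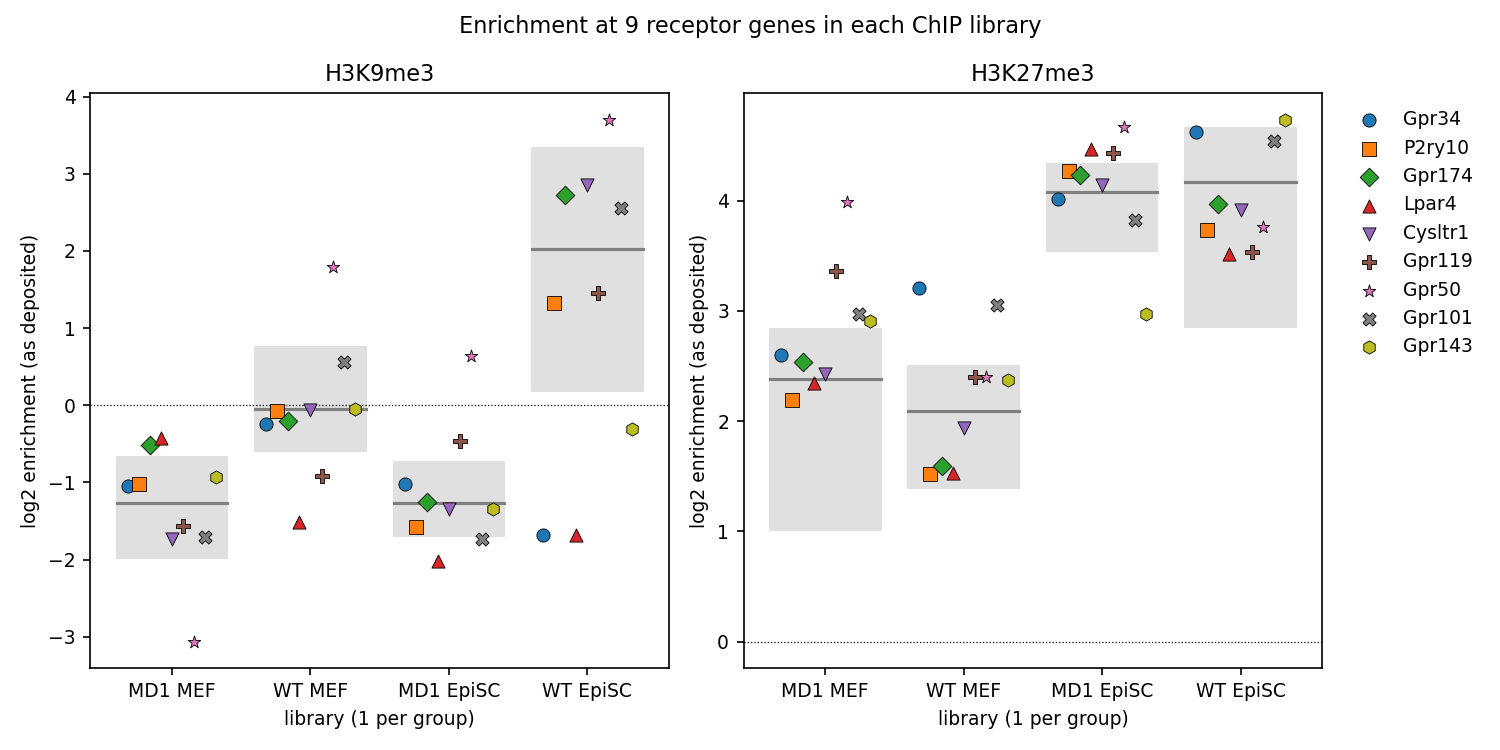
Each point is the deposited log2 enrichment of 1 receptor gene in 1 library (left panel H3K9me3, right panel H3K27me3), the grey bar marks the median and the box the quartiles of all genes in that library, and the dotted line is 0. In WT EpiSCs 6 of the 9 genes lie above 1 in H3K9me3 and Gpr34 and Lpar4 lie near −1.7, while in H3K27me3 all 9 genes stay at 1.52 or above in every library.

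The lysophosphatidylserine receptor genes did not share a pattern. P2ry10 had H3K9me3 values of −1.02 in MD1 MEFs and −0.077 in WT MEFs, and of −1.58 in MD1 EpiSCs and 1.32 in WT EpiSCs. Gpr174, which lies 150.907 kb beyond it, had −0.51 in MD1 MEFs and −0.21 in WT MEFs, and −1.25 in MD1 EpiSCs and 2.72 in WT EpiSCs. Among the 4 kinds of cells, both were at least 2-fold enriched in WT EpiSCs alone. Gpr34, which is strongly expressed in microglia, had −1.04 in MD1 MEFs and −0.24 in WT MEFs, and −1.02 in MD1 EpiSCs and −1.69 in WT EpiSCs. Its value lay below 0 in all 4, and at the 2.65 percentile of all genes in WT EpiSCs on a ChIP count of 3. Cask, which surrounds Gpr34, had 0.081 there, and the difference of −1.77 between Gpr34 and Cask had a counting interval of −3.47 to −0.070. Gpr82, on the other side, had −1.91 there, and Gpr34 minus Gpr82 was 0.23 (−3.14 to 3.60).

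In H3K27me3 Gpr34 stood high in WT cells, and P2ry10 and Gpr174 stood low in WT MEFs. Gpr34 had 2.60 in MD1 MEFs and 3.21 in WT MEFs, and 4.01 in MD1 EpiSCs and 4.62 in WT EpiSCs. In WT MEFs it stood at the 97.9 percentile. P2ry10 had 2.19 in MD1 MEFs and 1.52 in WT MEFs, and 4.27 in MD1 EpiSCs and 3.74 in WT EpiSCs. It was the lowest receptor gene in both MEF libraries. Gpr174 had 2.54 in MD1 MEFs and 1.59 in WT MEFs, and 4.24 in MD1 EpiSCs and 3.97 in WT EpiSCs. P2ry10 and Gpr174 had larger values in MD1 than in WT in both cell types, and Gpr34 smaller ones, though for Gpr34, and for Gpr174 in EpiSCs, within counting error.

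Lpar4 was a gap in the H3K9me3 of its surroundings. Its H3K9me3 was −0.42 in MD1 MEFs and −1.52 in WT MEFs, and −2.02 in MD1 EpiSCs and −1.68 in WT EpiSCs. The WT values stood at the 3.75 percentile in MEFs and the 2.79 percentile in EpiSCs. In WT EpiSCs it lay under all 10 measured genes around it, 5 on each side over 1.48 Mb and 3 of them receptor genes of the cluster, which ran from 1.32 to 3.91 with a median of 2.80. The gap was there in WT MEFs as well, where the 10 genes ran from −0.70 to 1.94. Lpar4 minus P2ry10, the next gene at 155.435 kb, was 0.60 in MD1 MEFs (counting interval −0.16 to 1.36) and −1.44 in WT MEFs (−2.43 to −0.46), and −0.44 in MD1 EpiSCs (−2.12 to 1.23) and −3.00 in WT EpiSCs (−4.17 to −1.83). Lpar4 minus Gm5127, on its other side, was 0.11 in MD1 MEFs (−0.42 to 0.65) and −1.56 in WT MEFs (−2.40 to −0.72), and −1.34 in MD1 EpiSCs (−2.85 to 0.16) and −4.42 in WT EpiSCs (−5.54 to −3.30). The intervals held 0 in MD1 cells and lay under 0 in WT cells. The comparison of Lpar4 with its neighbours was chosen after its values were seen.

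**Figure D2:**
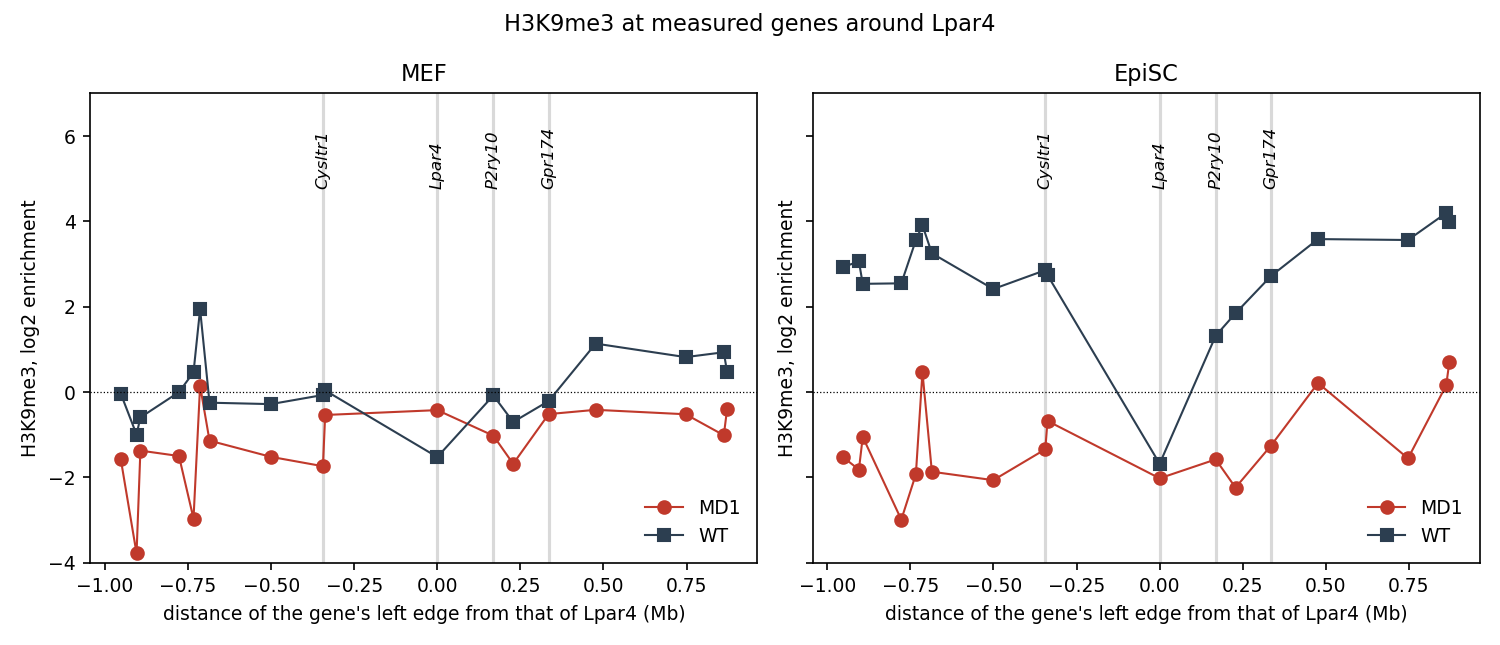
H3K9me3 (log2 enrichment) at the 18 genes measured in all 8 libraries within 1 Mb of Lpar4, against the distance of each gene's left edge from that of Lpar4, in MEFs (left) and EpiSCs (right), with MD1 as red circles and WT as dark squares. WT EpiSCs fall to −1.68 at Lpar4 between 2.74 at Gm5127 and 1.32 at P2ry10, while in MD1 EpiSCs, at −2.02, it lies among its neighbours.

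Lpar4 showed no such gap in H3K27me3. It had 2.35 in MD1 MEFs and 1.53 in WT MEFs, and 4.47 in MD1 EpiSCs and 3.52 in WT EpiSCs. Of the 10 genes around it, 3 lay below it in MD1 MEFs, 4 in WT MEFs, 9 in MD1 EpiSCs and 3 in WT EpiSCs. Its difference from P2ry10 was 0.16 in MD1 MEFs, 0.0069 in WT MEFs, 0.20 in MD1 EpiSCs and −0.22 in WT EpiSCs, and all 4 counting intervals held 0. From Gm5127 it differed by −0.37 in MD1 MEFs (−0.69 to −0.049), an interval below 0. The differences from Gm5127 of −0.19 in WT MEFs, 0.15 in MD1 EpiSCs and −0.25 in WT EpiSCs had intervals that held 0. The promoter windows of Lpar4 and of the receptor genes beyond it are shown because Lpar4 lay under both in H3K9me3 in WT cells. In H3K27me3 Lpar4 did not differ from P2ry10 beyond counting error. The windows come from RefSeq (GRCm38.p6, not the mm9 of the values) and run from 250 bases before to 50 bases after the gene's start, with each CG dinucleotide in capitals. The windows are Lpar4 (chrX:106920375-106920674, plus strand), the first of the P2ry10 starts (chrX:107088242-107088541, plus strand) and Gpr174 (chrX:107284096-107284395, plus strand).
Lpar4: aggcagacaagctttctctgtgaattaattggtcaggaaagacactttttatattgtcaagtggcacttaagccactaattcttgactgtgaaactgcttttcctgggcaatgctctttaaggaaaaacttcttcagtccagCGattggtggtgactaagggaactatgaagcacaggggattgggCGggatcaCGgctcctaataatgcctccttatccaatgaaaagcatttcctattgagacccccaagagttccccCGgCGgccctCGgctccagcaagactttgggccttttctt
P2ry10: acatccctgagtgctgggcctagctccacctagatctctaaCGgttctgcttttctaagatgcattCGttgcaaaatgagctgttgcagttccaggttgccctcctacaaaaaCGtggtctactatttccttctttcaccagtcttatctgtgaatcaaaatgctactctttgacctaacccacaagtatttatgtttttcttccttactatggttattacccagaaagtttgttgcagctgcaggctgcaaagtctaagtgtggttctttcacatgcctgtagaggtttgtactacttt
Gpr174: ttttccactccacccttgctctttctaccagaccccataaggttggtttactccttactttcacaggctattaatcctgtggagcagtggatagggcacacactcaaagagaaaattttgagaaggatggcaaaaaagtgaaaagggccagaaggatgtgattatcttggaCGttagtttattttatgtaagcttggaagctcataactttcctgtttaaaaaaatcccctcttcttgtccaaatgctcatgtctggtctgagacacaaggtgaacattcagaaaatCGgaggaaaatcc

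A CG, which reads the same on both strands, occurred 6 times in the Lpar4 window, 3 and 5 times in the P2ry10 windows and 2 times in that of Gpr174. At least 1 was present in 95.3% of 838 windows of the X-linked genes listed, whose median was 9. At least as many CGs as in Lpar4 were found in 64.2% of them, and at least as many as in Gpr174 in 88.4%. All 3 genes thus had fewer CGs than the median window, and Lpar4 more than the others. The other receptor genes matched in that table were Gpr101 with 19 CGs, Gpr50 with 8, Agtr2 with 5 and Gpr119 with 4. No source used here states whether the deposited values cover the promoter, and the counts are a description of the sequence only.

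Cysltr1, the target of leukotriene receptor blockers used in asthma, was near Gpr174 in EpiSCs but not in MD1 MEFs. Its H3K9me3 was −1.74 in MD1 MEFs and −0.066 in WT MEFs, and −1.34 in MD1 EpiSCs and 2.86 in WT EpiSCs. Its H3K27me3 was 2.42 in MD1 MEFs and 1.94 in WT MEFs, and 4.14 in MD1 EpiSCs and 3.91 in WT EpiSCs. Enrichment in H3K9me3 was again seen only in WT EpiSCs among the 4 kinds of cells. Gm5127, with which Cysltr1 overlaps, had H3K9me3 of −0.67 in MD1 EpiSCs and 2.74 in WT EpiSCs.

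Gpr119 rested on few counts. Its H3K9me3 was −1.57 in MD1 MEFs and −0.92 in WT MEFs, and −0.46 in MD1 EpiSCs and 1.46 in WT EpiSCs. The ChIP count was 3 in each of these libraries but WT EpiSC, where it was 11. Its H3K27me3 was 3.36 in MD1 MEFs and 2.40 in WT MEFs, and 4.43 in MD1 EpiSCs and 3.53 in WT EpiSCs. In MD1 MEFs this was the 96.0 percentile of all genes.

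Gpr50 carried the highest H3K9me3 of the receptor genes in 3 of the 4 kinds of cells and the lowest in the other. Its H3K9me3 was −3.07 in MD1 MEFs and 1.80 in WT MEFs, and 0.64 in MD1 EpiSCs and 3.70 in WT EpiSCs. It exceeded all 10 measured genes around it, whose highest value was 1.03 in WT MEFs, −0.63 in MD1 EpiSCs and 2.09 in WT EpiSCs. In MD1 EpiSCs, on a ChIP count of 7, its differences of 1.28 from Vma21 (−1.30 to 3.85) and 3.11 from Hmgb3 (−0.095 to 6.31) had intervals that held 0. Against Vma21, the next gene, it was higher by 2.32 in WT MEFs (counting interval 1.01 to 3.64) and by 3.66 in WT EpiSCs (2.27 to 5.06). Against Hmgb3, on the other side, the differences of 0.77 in WT MEFs (−0.43 to 1.97) and 1.62 in WT EpiSCs (−1.33 to 4.57) had intervals that held 0. The smallest counts may understate the true ones at these genes, so such intervals may be too wide. In MD1 MEFs the value rested on a ChIP count of 1 and lay above 1 of the 10 surrounding genes. Its H3K27me3 was 3.99 in MD1 MEFs and 2.40 in WT MEFs, and 4.67 in MD1 EpiSCs and 3.76 in WT EpiSCs. In MEFs these were the 99.5 percentile in MD1 and the 68.8 percentile in WT, and in EpiSCs the 96.3 percentile in MD1 and the 39.7 percentile in WT.

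**Figure D3:**
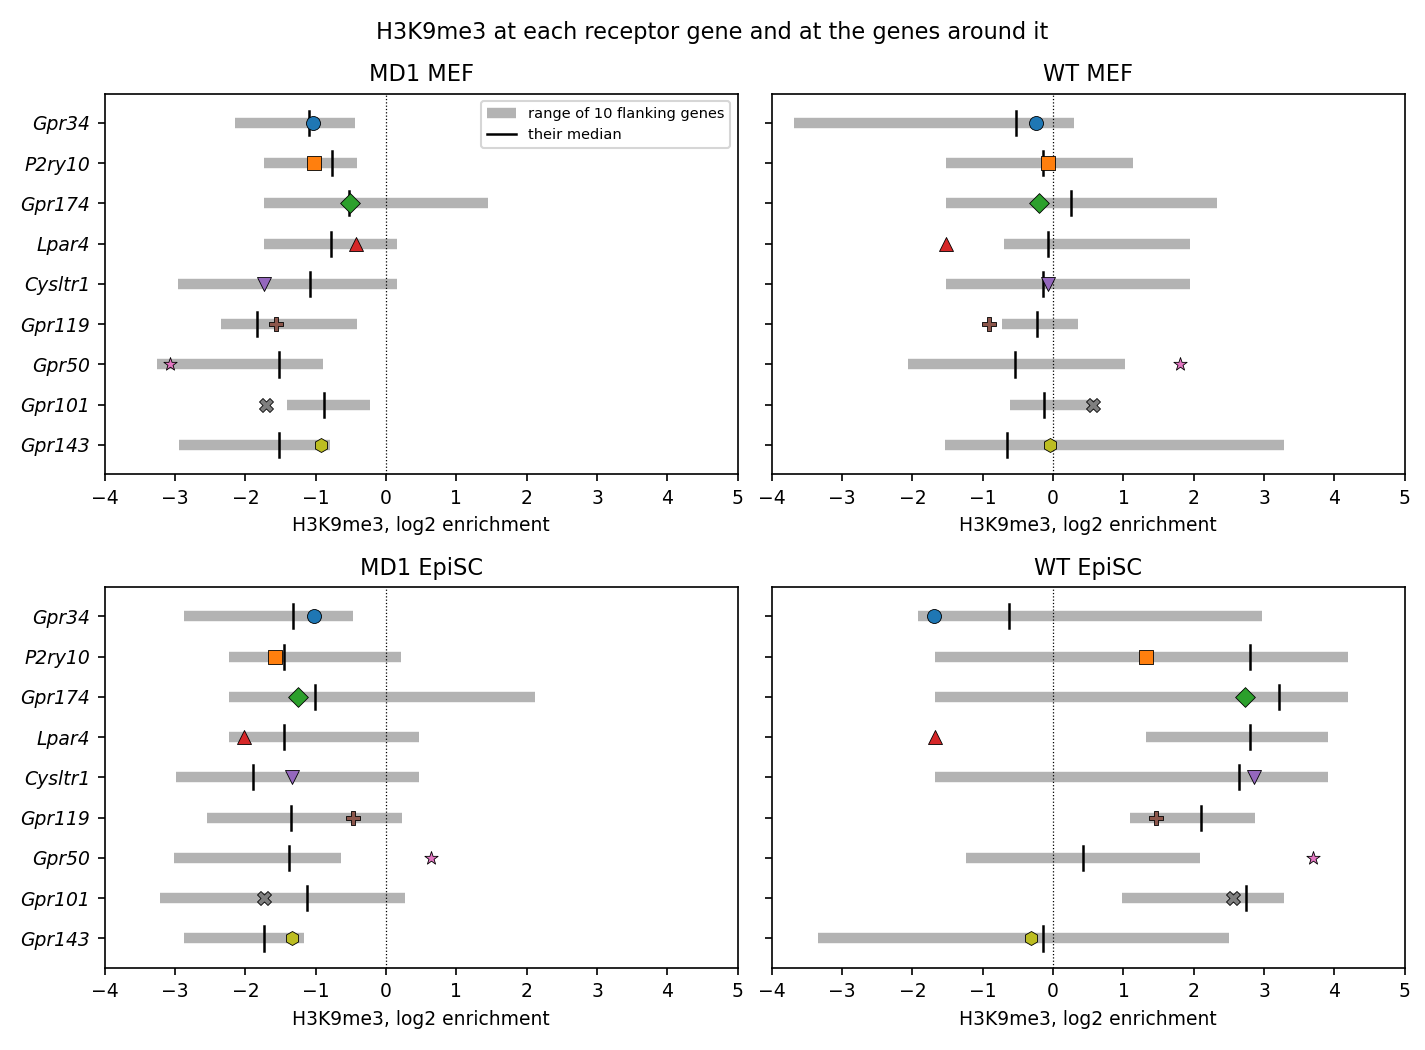
H3K9me3 (log2 enrichment) of each receptor gene (coloured point) beside the range (grey bar) and median (black tick) of the 10 nearest measured genes, in MD1 (left) and WT (right) cells, for MEFs (top) and EpiSCs (bottom). In both WT panels Gpr50 lies to the right of its bar, at 1.80 in MEFs and 3.70 in EpiSCs, and Lpar4 to the left, at −1.52 and −1.68.

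Gpr101 varied in its place among the genes around it. Its H3K9me3 was −1.71 in MD1 MEFs and 0.56 in WT MEFs, and −1.74 in MD1 EpiSCs and 2.55 in WT EpiSCs. In H3K9me3 it lay above none of the 10 surrounding genes in MD1 MEFs and above 9 in WT MEFs, and above 1 in MD1 EpiSCs and 4 in WT EpiSCs. The MD1 EpiSC value rested on a ChIP count of 3. These 10 genes lay over 3.26 Mb. Gpr101 minus Fgf13, the next measured gene on one side at 1558.389 kb, was 1.58 in WT EpiSCs (counting interval 0.76 to 2.39). Gpr101 minus Gm364, on the other side at 7.896 kb, was 0.52 there (−0.31 to 1.36). Its H3K27me3 was 2.97 in MD1 MEFs and 3.06 in WT MEFs, and 3.82 in MD1 EpiSCs and 4.54 in WT EpiSCs. In H3K27me3 it lay above 6 of the 10 surrounding genes in MD1 MEFs and all 10 in WT MEFs, and above none in MD1 EpiSCs and all 10 in WT EpiSCs. Its H3K27me3 differences from Gm364 (0.89, 0.28 to 1.50) and Fgf13 (0.92, 0.32 to 1.53) had intervals above 0 in WT MEFs. In WT EpiSCs those of 0.52 (−0.14 to 1.18) and 0.057 (−0.59 to 0.70) held 0, as did both in MD1 MEFs. In MD1 EpiSCs −0.46 from Gm364 (−1.03 to 0.12) held 0, and −0.61 from Fgf13 (−1.18 to −0.051) did not.

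Gpr143 had H3K9me3 values below 0 in all 4 kinds of cells, though close to 0 in WT MEFs. It was the receptor gene with the largest H3K27me3 difference between the genotypes in EpiSCs. Its H3K9me3 was −0.93 in MD1 MEFs and −0.049 in WT MEFs, and −1.34 in MD1 EpiSCs and −0.31 in WT EpiSCs. These stood at the 65.1 percentile of all genes in MD1 MEFs and the 50.1 percentile in WT MEFs, and at the 45.4 percentile in MD1 EpiSCs and the 15.6 percentile in WT EpiSCs. Its H3K27me3 was 2.90 in MD1 MEFs and 2.37 in WT MEFs, and 2.97 in MD1 EpiSCs and 4.74 in WT EpiSCs. It was the lowest receptor gene in MD1 EpiSCs and the highest in WT EpiSCs.

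In MD1 cells H3K9me3 was at least 2-fold lower than in WT at 3 of the 9 receptor genes in MEFs and at 7 of 9 in EpiSCs. Of all genes, 51.3% were lower in MEFs and 82.9% in EpiSCs, so the receptor genes did not stand above the background. In EpiSCs the lower genes were Gpr101 (−4.29, counting interval −6.19 to −2.39), Cysltr1 (−4.20, −5.17 to −3.23), Gpr174 (−3.97, −4.60 to −3.35), Gpr50 (−3.06, −4.63 to −1.49), P2ry10 (−2.90, −3.78 to −2.02), Gpr119 (−1.92, −4.05 to 0.21) and Gpr143 (−1.02, −1.90 to −0.15). For Gpr119 the interval held 0. Gpr174 was thus 15.7-fold lower and P2ry10 7.46-fold lower. Lpar4 (−0.34, −2.18 to 1.50) and Gpr34 (0.67, −1.34 to 2.68) stood apart at the 93.5 and 98.6 percentiles of all changes, and both had H3K9me3 values below 0 in WT EpiSCs. None of the 9 was at least 2-fold higher, as were 1.13% of all genes. The median change was −2.90 for the receptor genes and −2.98 for all 708 genes. All 6 receptor genes with at least 2-fold H3K9me3 in WT EpiSCs were under that level in MD1, as were 93.1% of the 452 such genes in all.

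The median H3K9me3 over the 698 genes with all values differed by −3.30 between MD1 and WT EpiSCs (MD1 minus WT), and the size of each change above includes that shift. Relative to it, the changes of Gpr101, Cysltr1 and Gpr174 became −0.99, −0.90 and −0.67, so that none of the 9 was 2-fold lower. Those of Gpr50, P2ry10, Gpr119, Gpr143, Lpar4 and Gpr34 became 0.24, 0.40, 1.38, 2.28, 2.96 and 3.97. Differences between genes do not depend on the shift. Lpar4 changed less than Cysltr1 by 3.86 (1.77 to 5.94), than Gpr174 by 3.63 (1.69 to 5.58) and than P2ry10 by 2.56 (0.51 to 4.60). These differences hold the same WT values as the gap at Lpar4, which stood at −1.68 in WT EpiSCs with little H3K9me3 to lose. They are not a separate result, and the comparison was chosen after the values were seen.

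In MEFs the genes at least 2-fold lower in MD1 were Gpr50 (−4.86, counting interval −7.89 to −1.84), Gpr101 (−2.27, −3.65 to −0.89) and Cysltr1 (−1.67, −2.36 to −0.97). Changes under 2-fold were P2ry10 with −0.94 (−1.72 to −0.17), Gpr143 with −0.88 (−1.39 to −0.36), Gpr34 with −0.80 (−1.93 to 0.32), Gpr119 with −0.65 (−3.21 to 1.90) and Gpr174 with −0.31 (−1.02 to 0.41). Lpar4 alone among the 9 was at least 2-fold higher, by 1.10 (0.13 to 2.07), a call made at 0.677% of all genes. It was 2.14-fold higher on ChIP counts of 43 in MD1 and 14 in WT. With 0.1 added to each ratio the log2 change was 0.92, under 2-fold. The median change was −0.88 for the receptor genes and −1.02 for all 739 genes, and the library medians differed by −1.17. Relative to that shift the Lpar4 change was 2.26, and Cysltr1 at −0.50 was no longer 2-fold lower. Lpar4 exceeded the change of Cysltr1 by 2.77 (1.58 to 3.96), of P2ry10 by 2.04 (0.80 to 3.28) and of Gpr174 by 1.41 (0.21 to 2.61). This comparison, too, was chosen after the values were seen and holds the WT values of the gap at Lpar4.

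**Figure D4:**
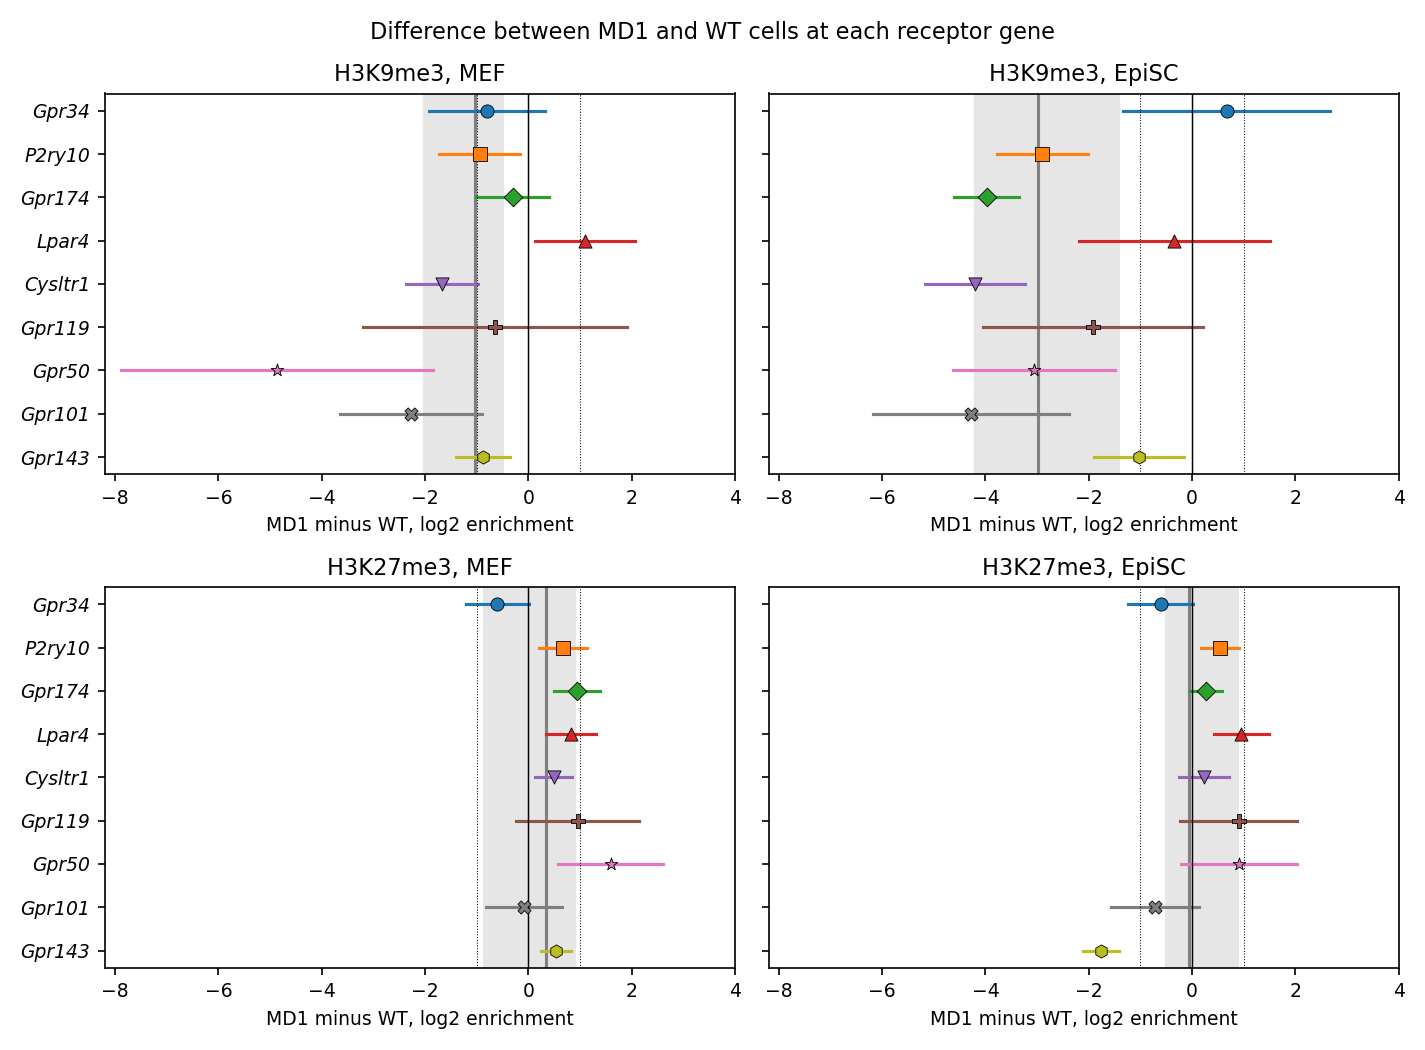
Points are MD1 minus WT differences in log2 enrichment for each receptor gene and lines are 95% counting intervals, with H3K9me3 in the top row, H3K27me3 in the bottom row, MEFs on the left and EpiSCs on the right. The grey line and band are the median and quartiles of all genes and dotted lines mark 2-fold. In H3K9me3 most points lie left of 0 and Lpar4 in MEFs lies at 1.10, while in H3K27me3 all points lie within 2-fold apart from Gpr143 in EpiSCs at −1.77 and Gpr50 in MEFs at 1.59, and 6 of the 9 intervals in MEFs lie above 0.

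At most receptor genes H3K27me3 differed between the genotypes by less than 2-fold. In EpiSCs 1 of the 9, Gpr143, was at least 2-fold lower in MD1, with a change of −1.77 (counting interval −2.11 to −1.42), or 3.40-fold, where 11.3% of all genes were lower. None was at least 2-fold higher, against 22.7% of all genes. Lpar4 (0.95, 0.42 to 1.48) and P2ry10 (0.54, 0.17 to 0.90) were higher by less than 2-fold, with intervals above 0. The intervals of Gpr50 (0.91), Gpr119 (0.90), Gpr174 (0.27), Cysltr1 (0.23), Gpr34 (−0.61) and Gpr101 (−0.71) held 0. The median was 0.27 for the receptor genes and −0.069 for all genes. The library medians differed by −0.099, and relative to that shift Lpar4 and Gpr50 passed 2-fold at 1.05 and 1.01, and Gpr119 just reached it.

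Shroom2, which lies next to Gpr143 and encodes a regulator of the actin cytoskeleton, was lower too, with H3K27me3 of 1.36 in MD1 EpiSCs and 4.73 in WT EpiSCs. On the other side 9530051G07Rik had 4.25 in MD1 EpiSCs and 4.79 in WT EpiSCs. Within the MD1 library Gpr143 stood 1.60 above Shroom2 (1.33 to 1.88) and −1.28 from 9530051G07Rik (−1.62 to −0.93). In WT EpiSCs it differed from them by 0.0012 (−0.26 to 0.26) and −0.055 (−0.48 to 0.38). In MD1 EpiSCs Gpr143 therefore lay between its neighbours, and in WT EpiSCs it differed from neither beyond counting error.

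In MEFs 7 of the 9 receptor genes had more H3K27me3 in MD1, as had 61.4% of all genes. Gpr50 was at least 2-fold higher, by 1.59 (0.57 to 2.62), where 22.3% of all genes were called higher. Intervals above 0 were also found at Gpr174 (0.95, 0.50 to 1.39), Lpar4 (0.82, 0.34 to 1.30), P2ry10 (0.67, 0.20 to 1.13), Gpr143 (0.53, 0.24 to 0.82) and Cysltr1 (0.49, 0.12 to 0.85). Gpr119 (0.95), Gpr101 (−0.086) and Gpr34 (−0.60) had intervals that held 0. None of the 9 was at least 2-fold lower, against 24% of all genes. The median was 0.67 for the receptor genes and 0.34 for all genes, and the library medians differed by 0.28. At Gpr50 the same MD1 MEF cells thus had the highest H3K27me3 and the lowest H3K9me3 of the 9 genes. The 2 marks share an input count, of 16 at Gpr50 in these cells, and with an input minimum of 20 Gpr50 was not counted and none of the other genes was 2-fold higher in H3K27me3.

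Between cell types, H3K27me3 was lower in MEFs than in EpiSCs at all 9 receptor genes in both genotypes, as it was at 94.6% of all genes in MD1 and 87.9% in WT. The counting intervals held 0 at Gpr143, Gpr50 and Gpr119 in MD1 and at Gpr119 in WT. In MD1 cells 6 of 9 were at least 2-fold lower in MEFs, and in WT cells 9 of 9, against 82.5% and 78.2% of all genes. The differences ran from −2.12 at Lpar4 to −0.065 at Gpr143 in MD1, and from −2.37 at Gpr174 to −1.13 at Gpr119 in WT. In MD1 cells Gpr143 had 2.90 in MEFs and 2.97 in EpiSCs, and was the receptor gene that differed least. None was at least 2-fold higher in MEFs, as were 1.93% of all genes in MD1 and 6.47% in WT. The library medians moved the same way, with MEF minus EpiSC differences of −1.70 in MD1 and −2.07 in WT. Relative to those shifts none of the 9 was 2-fold lower.

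H3K9me3 was at least 2-fold lower in WT MEFs than in WT EpiSCs at 6 of 9 receptor genes, where 68.2% of all genes were. These were the 6 genes enriched in WT EpiSCs, from −2.93 at Gpr174 and Cysltr1 to −1.40 at P2ry10. Gpr34 was higher in WT MEFs by 1.45 (counting interval −0.43 to 3.33), on a count of 3 in EpiSCs, a call made at 3.52% of all genes. Lpar4 had −1.52 in WT MEFs and −1.68 in WT EpiSCs, a difference of 0.16 (−1.22 to 1.54). The library medians differed by −2.13, and relative to that shift none of the 9 was 2-fold lower.

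In MD1 cells the H3K9me3 medians of the 2 cell types differed by 0.0077. Gpr50 was lower in MD1 MEFs than in MD1 EpiSCs, at −3.71 (−6.91 to −0.51) on a count of 1 in MEFs, as was Gpr119 at −1.10 (−3.65 to 1.44), where 19% of all genes were called lower. Lpar4 was higher in MD1 MEFs by 1.60 (0.040 to 3.16), where 10.3% of all genes were called higher. Gpr174 was higher by 0.74 (0.050 to 1.42). The other 5 receptor genes differed by less than counting error, from −0.40 at Cysltr1 to 0.56 at P2ry10.

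For each receptor gene the most similar other gene was taken as the one at the smallest Euclidean distance over the 8 log2 values, among 689 candidates. The closest matches were 1700111N16Rik for Gpr174, at 0.606, and Sept6, a septin gene, for Cysltr1, at 0.693. The loosest were Gm9 for Gpr50, at 2.09, and Col4a5, a collagen gene, for Lpar4, at 1.89, where the median distances to all candidates were 5.49 and 5.05. The others were Pir for P2ry10 (0.963), 3010001F23Rik for Gpr34 (0.982), Mospd1 for Gpr119 (1.05), Lonrf3 for Gpr101 (1.11) and Nyx for Gpr143 (1.23). None of the 9 matches was among the neighbouring genes, the nearest being Mospd1 at 4.68 Mb from Gpr119.

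Of a list of 22 symbols for other X-linked receptor genes, some of them 2 names of the same gene, 17 were in the table and up to 11 had values in a comparison. In MD1 EpiSCs 5 of 10 were at least 2-fold lower in H3K9me3 and 1 higher, against 82.9% and 1.13% of all genes, and the median change was −1.51, against −2.98 for all genes. Among the genes counted, the largest decreases were at Htr2c, a serotonin receptor gene (−4.13, counting interval −4.45 to −3.80), and Opn1mw, a cone opsin gene (−2.66, −3.58 to −1.74). Gpr165 (−2.60) and Avpr2, the vasopressin receptor gene of the kidney (−2.55), followed, while Gpr82, next to Gpr34, was higher by 1.45. A630033H20Rik, named P2ry10b in RefSeq, was not matched to its listed symbol and is outside these counts and this ranking. Its H3K9me3 was −2.24 in MD1 EpiSCs and 1.85 in WT EpiSCs, also a decrease of more than 2-fold. The intervals of Gpr165, Avpr2 and Gpr82 held 0, each on a smallest ChIP count of 1 in MD1 EpiSCs. In MEFs 4 of 11 were lower, against 51.3% of all genes (Brs3, P2ry4, Cxcr3 and Avpr2, from −2.70 to −1.11), and Gpr82 was higher by 2.73, all with intervals that held 0.

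Htr2c had the largest H3K27me3 increase among these other receptor genes in MEFs and Gpr165 in EpiSCs. Htr2c had 2.23 in MD1 MEFs and 0.49 in WT MEFs, a change of 1.74 (1.62 to 1.85), and 4.07 in MD1 EpiSCs and 2.97 in WT EpiSCs, a change of 1.10 (0.94 to 1.26). Gpr165 changed by 1.36 in EpiSCs (0.33 to 2.40) and no other of the 10 passed 2-fold there, nor any other of the 11 in MEFs. Of all genes 22.7% were at least 2-fold higher and 11.3% lower in EpiSCs, and 22.3% higher and 24% lower in MEFs. Of 4 genes for receptor partners, H3K9me3 was at least 2-fold lower at 3 of 3 with values in MEFs and at 2 of 3 in EpiSCs, against 51.3% and 82.9% of all genes. Gprasp1, which encodes a receptor sorting protein, changed by −1.61 in MEFs and −3.84 in EpiSCs, and Gprasp2 by −5.07 in EpiSCs. In MEFs the H3K27me3 change was −1.80 at Gprasp1 (−2.18 to −1.43), −1.53 at the arrestin gene Arr3 (−1.94 to −1.11) and 1.08 at Bhlhb9 (0.32 to 1.84). None of the 9 receptor genes, nor of the 11 listed ones with values, was 2-fold lower in H3K27me3 in MD1 MEFs than in WT MEFs, against 24% of all genes. In EpiSCs Gpr143 was 2-fold lower. Both sets were chosen with earlier results of these data known, and the difference from all genes was not tested.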

How the data were processed

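The authors deposited 1 log2 enrichment value per gene and ChIP library for 952 X-linked genes. The build mm9 and the tools BWA, SAMtools and cutadapt are named in the submitters' processing notes. Versions, the counting rule, each library's constant and the allele counted were not given in the sources used here. Starts were read as counting from 0 (346 of 840 RefSeq gene lengths then matched, against 36) and are printed counting from 1.

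From these values, with Python 3.11.15, numpy 2.4.6 and pandas 2.3.3, differences were taken as MD1 minus WT or MEF minus EpiSC, and called at 2-fold. With 1 library a group no p-value was computed. Whole-number pairs were sought with 1 constant per library, a relative tolerance of 1e-12 and denominators up to 30000. A pair was found for 100% of values, and for at most 0.543% after values were moved by up to 1e-06 of their size. Each pair is the smallest that gives its value, and both marks were given a common input count. Intervals use a normal approximation on the log scale and are approximate at few counts. The recovery was also run on simulated data, with an outcome that is not given here. Coverage of the intervals was not scored there at the lowest ChIP counts.

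Every member with values is named. Non-members named are the next measured gene on each side, the most similar gene over 8 libraries, and, from a list of other receptor and partner genes, up to 4 at the largest changes. The members and lists were chosen with earlier results of these data known. Alternatives were median centring, 0.1 added to each ratio, an input count of at least 20, and percentiles among the 698 genes with all values. Promoter windows came from RefSeq for 7 of the 10 members.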

Additional observations from a re-analysis of the deposited data

Results flagged for a closer look

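At 3 genes the MD1 minus WT change had opposite signs in the 2 cell types, each measured in 1 library, and this difference was not tested across samples. For H3K9me3 these were 2 of 9 receptor genes, against 9.31% of 698 genes, and for H3K27me3 1 of 9, against 40.4%. Gpr143 changed in H3K27me3 by 0.53 in MEFs and −1.77 in EpiSCs, a difference of 2.30 (counting interval 1.84 to 2.75). With each library centred on its median the changes were 0.26 in MEFs and −1.67 in EpiSCs, a difference of 1.92 (1.47 to 2.37), still opposite in sign. Lpar4 changed in H3K9me3 by 1.10 in MEFs and −0.34 in EpiSCs, a difference of 1.44 (−0.64 to 3.52). After centring the changes were 2.26 in MEFs and 2.96 in EpiSCs, no longer opposite, and the difference turned to −0.70 (−2.78 to 1.38). Gpr34 changed in H3K9me3 by −0.80 in MEFs and 0.67 in EpiSCs, a difference of −1.47 (−3.77 to 0.83). After centring the changes were 0.36 in MEFs and 3.97 in EpiSCs, no longer opposite, and the difference was −3.61 (−5.91 to −1.31), beyond counting error. Most of the 3.97 is the library shift of −3.30 taken off a change of 0.67 (−1.34 to 2.68). In WT EpiSCs Gpr34 stood at −1.69 on a ChIP count of 3, so it had little H3K9me3 to lose. Centring gave opposite H3K9me3 signs at 2 other genes of the 9, against 32.5% of all genes. These were Gpr50 (−3.70 in MEFs and 0.24 in EpiSCs, difference −3.94, −7.35 to −0.53) and Gpr174 (0.86 and −0.67, difference 1.53, 0.58 to 2.48). For H3K27me3 it was 1 of 9, against 35.5%.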

How the results depend on the processing

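No paired analysis was possible because each group holds 1 library, and for the same reason no replicate could be left out. Centring each library on its median over the genes with all 8 values was the setting that changed most. For H3K9me3 in EpiSCs (MD1 minus WT) it gave 0 receptor genes lower and 4 higher, with a median of 0.40 and changes of 1.38 at Gpr119, 0.24 at Gpr50, 0.40 at P2ry10 and 2.28 at Gpr143. The H3K9me3 median in MEFs became 0.29. For H3K27me3 in EpiSCs 3 genes were then higher. Between cell types (MEF minus EpiSC) centring left 0 lower and 3 higher for H3K9me3 in WT, with a median of 0.23 and values of 0.14 at Gpr101, 0.23 at Gpr50 and 0.73 at P2ry10. For H3K27me3 it left 0 lower and 2 higher in MD1, with a median of 0.29, also the value of Gpr34, and 0.62 at Gpr119. In WT it left 0 lower, with a median of 0.095, also the value of Cysltr1, and 0.66 at Gpr34, 0.94 at Gpr119, 0.59 at Gpr101, 0.71 at Gpr50 and 0.081 at Lpar4. Adding 0.1 to each ratio gave 0 genes higher for H3K9me3 in MEFs (MD1 minus WT) and 1 lower for H3K9me3 between MD1 cell types. Input counts of at least 20 removed Gpr50 and Gpr119, and then 0 genes were lower for H3K9me3 between MD1 cell types and 0 higher for H3K27me3 in MEFs (MD1 minus WT). Percentiles among the 698 genes with all values stayed inside the exact binomial interval of the percentiles given in all 72 cases. Low ChIP counts widen the H3K9me3 intervals, with 1 at Gpr50 in MD1 MEFs and 3 at Gpr119 in MD1 MEFs, WT MEFs and MD1 EpiSCs, at Gpr101 in MD1 EpiSCs and at Gpr34 in WT EpiSCs.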
